A study of Mus musculus with 4 samples.

Results

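The members are 6 genes that set whether a cell leaves the G1 phase: Ccnd2, which encodes cyclin D2, the kinase genes Cdk4 and Cdk6, the inhibitor genes Cdkn1a and Cdkn1b, which encode p21 and p27, and the antiproliferative gene Btg2. They were taken by name and are 6 of the 15305 gene rows of the table. Their counts were read in all 82 cells, whatever the values.

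A D-type cyclin binds Cdk4 or Cdk6, and the complex phosphorylates the retinoblastoma protein, which frees E2F factors to drive entry into S phase. The p21 and p27 proteins bind cyclin-kinase complexes and hold back Cdk2 in particular, and p27 is known for its part in the exit of neural precursors from the cell cycle. In the subventricular zone, the wall of the lateral ventricle where neurons are made in adults, quiescent stem cells give rise to dividing progenitors and these to migrating neuroblasts, and cyclin D2 is the D-type cyclin best known for this lineage.

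The cells came from mice that carry Penk-Cre and the Ai9 reporter, in which Cre made from the Penk gene turns on tdTomato in the cell and in all its descendants. The genotype label is WT for all samples, and neither the age nor the number of mice is given. Dissociated tissue holding striatum and subventricular zone gave tdTomato+ cells, which were sorted singly, without cells positive for CD11b, a microglial surface protein, in dataset A and with no such gate in dataset B. For each dataset the labels name neuroblasts and quiescent neural stem cells as separate samples, but the columns carry only dataset, plate and well, so no cell could be given its labelled type.

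Cells were therefore classed by their counts. Sox11, a transcription factor gene of young neurons, was at 10 or more counts in 41 cells that were not rich in Enpp2, 16 of dataset A and 25 of dataset B. Enpp2, which encodes autotaxin and is abundant in the choroid plexus, the tissue that makes cerebrospinal fluid, took 1% or more of the counts in 30 other cells, 14 and 16. Another 2 cells of dataset A met both rules and entered no pool, and 9 cells, all of dataset A, met neither and are called the remaining cells. The lowest Sox11 values inside the class rule were 20 and 49 counts and the highest outside was 7. The lowest Enpp2 shares inside were 1.25% and 1.93% and the highest outside was 0.999%.

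Cells held 530630 to 7765650 counts each. Of 20 neuroblast markers, the median Sox11 cell had 13 at 10 or more counts in dataset A and 15 in dataset B, and the median Enpp2-rich or remaining cell had 1. Of 15 choroid plexus markers, the median Enpp2-rich cell had 11 and 9, against 2 and 0 in Sox11 cells. Sox11 is itself in the neuroblast list and Enpp2 in the choroid plexus list. The marker counts thus include these genes, whose detection in their own classes was set by the class rules. The remaining cells had a median of 8 of 15 astroglia and quiescent stem cell markers, with 0 to 13 per cell. They were a mixed group: 6 of the 9 were led by that list, 1 had 42.9% of its counts in oligodendrocyte lineage markers and none of the 6 members at 10 counts, and 2 had no marker list at 1% of counts. In 3 of the 16 Sox11 cells of dataset A, and 0 of the 25 of dataset B, another marker list took more counts than the neuroblast list. The first had 79.7% of its counts in choroid plexus markers, the second 5.26% in microglia markers with Sox11 at 20 counts, and the third 1.23% in astroglia markers against 0.334% in neuroblast markers. Without these 3 cells, Sox11 cells of dataset A had Ccnd2 in 84.6%, Cdk4 in 38.5%, Cdk6 in 7.69%, Cdkn1a in 15.4%, Cdkn1b in 76.9% and Btg2 in 7.69% of cells at 10 or more counts, to be set beside the values with all 16 cells given for each gene.

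Genes with any count per cell had medians of 1699.5 and 1818 in Sox11 cells of datasets A and B, 1237.5 and 1477 in Enpp2-rich cells and 1298 in remaining cells. After each cell was thinned to 500000 counts the medians were 1497, 1397, 959, 1243.5 and 1206. The lower number of genes in Enpp2-rich and remaining cells lies beside every lower share given for them, and its part in those shares was not tested. The classes were also uneven over the 4 plates of dataset B: P1 held 12 Sox11 and 2 Enpp2-rich cells, P2 held 6 and 0, P3 held 3 and 4, and PL4 held 4 and 10. In that dataset class and plate can only in part be told apart.

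Levels are counts per 1000000 (CPM), either of a cell or of all cells of a class in a dataset pooled. They are not scaled by gene length, so levels are compared between cells and not between genes. A member is called detected in a cell at 10 or more counts, and shares of cells carry exact 95% binomial (Clopper-Pearson) intervals. The protocols name no molecular identifiers, so these intervals and the limits set by counts of 0 cover counting error only. Cells are not replicates. Sox11 and Enpp2-rich cells were compared over 4 pools, 2 per class, with edgeR's quasi-likelihood test adjusted over all 7189 genes tested.

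Detection of the members fell into a common and a rare kind. Ccnd2 was detected in 59 of 82 cells, Cdkn1b in 45 and Cdk4 in 24, while Cdkn1a was detected in 8, Btg2 in 7 and Cdk6 in 3. Detected cells of the rare kind did not hold low levels: their lowest value was 60.1 CPM for Cdkn1a, 105 CPM for Cdk6 and 107 CPM for Btg2.

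**Figure D1:**
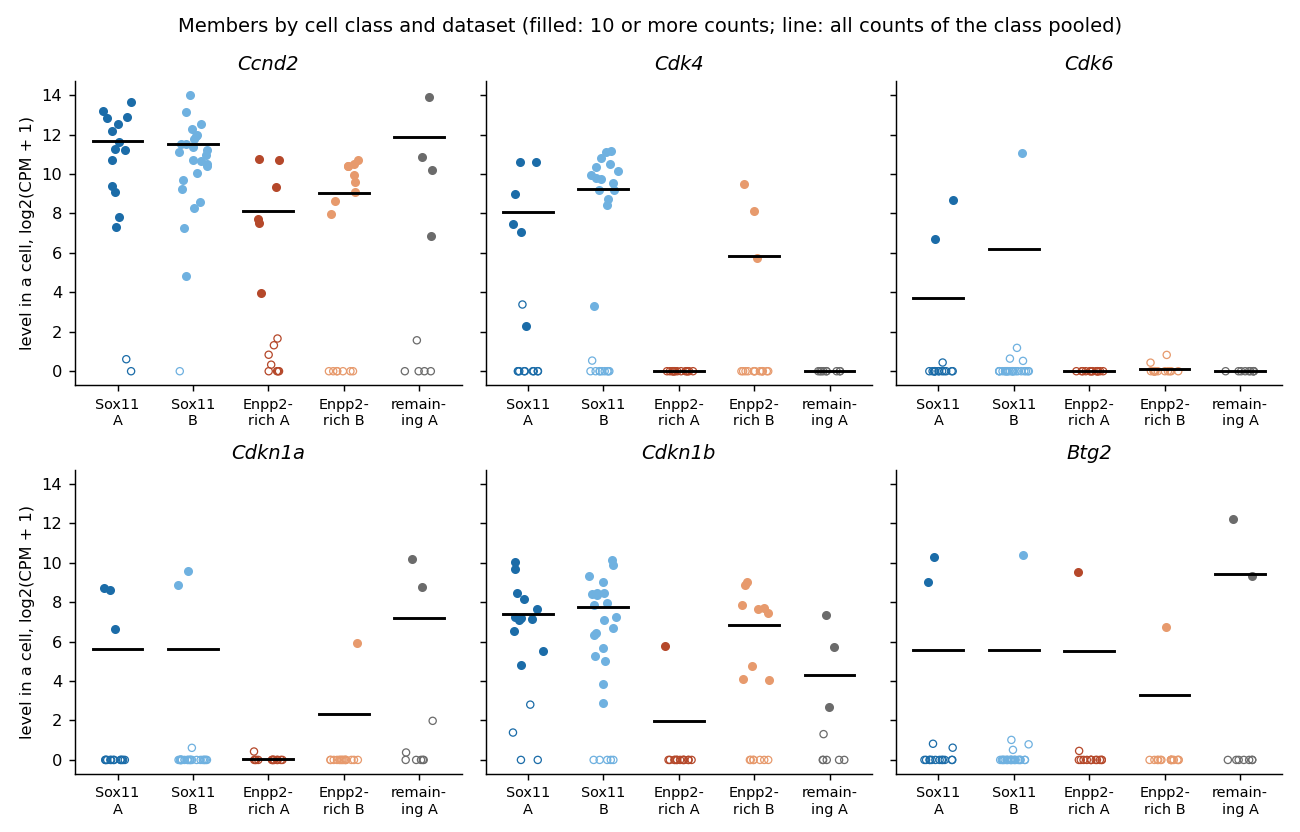
Level of each member in each cell, as log2(CPM + 1), by class and dataset; a filled point is a cell at 10 or more counts, an open point a cell under 10, and the line is the level of all cells of the class pooled. Ccnd2 is filled in nearly all Sox11 cells, Cdk4 is at 0 in all Enpp2-rich and remaining cells of dataset A, and the lines of Cdk6, Cdkn1a and Btg2 rest on 1 to 3 filled points each where they are above 2.

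Ccnd2, the cyclin, was the most widely detected member. Its pooled level was 3210 CPM in Sox11 cells of dataset A and 2890 CPM in those of dataset B, against 281 and 531 CPM in Enpp2-rich cells of datasets A and B. Both Sox11 pools lay above both Enpp2-rich pools, 11.4-fold in dataset A and 5.44-fold in dataset B. A single cell held 45.4% of the Ccnd2 counts of the Enpp2-rich pool of dataset A, which stood at 166 CPM without it. The fitted log2 difference was 2.44 (SE 0.80), which did not pass the adjusted test (adjusted p = 0.31, edgeR quasi-likelihood).

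Ccnd2 was detected in 14 of 16 Sox11 cells of dataset A (87.5%, interval 61.7% to 98.4%) and in 24 of 25 of dataset B (96.0%, 79.6% to 99.9%). It was detected in 6 of 14 Enpp2-rich cells of dataset A (42.9%, 17.7% to 71.1%) and in 9 of 16 of dataset B (56.2%, 29.9% to 80.2%). The intervals of Sox11 and Enpp2-rich cells overlapped in dataset A and, by less than 1 percentage point, in dataset B. Among detected cells the median level was 2820 and 2120 CPM in Sox11 cells of datasets A and B, and 424 and 990 CPM in Enpp2-rich cells. Both the share of cells and the level per detected cell were thus higher in the Sox11 pools. On the plates of dataset B it was detected in all Sox11 cells of P1, P2 and P3 and in 3 of 4 on PL4, and in 2 of 2, 2 of 4 and 5 of 10 Enpp2-rich cells of P1, P3 and PL4.

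The remaining cells had the highest pooled Ccnd2 level, 3690 CPM, through a single cell. That cell held 51492 counts, or 86.3% of the Ccnd2 counts of the class, at 15400 CPM. It had 57833 counts of the astroglial gene Aldoc, but only 9 of Gja1 and 15 of Slc1a3, which are also in the astroglia list. Without it the level was 637 CPM, between the Enpp2-rich and the Sox11 pools. The gene was detected in 4 of the 9 cells (44.4%, 13.7% to 78.8%). The 2 cells that met both class rules had 20 and 60 counts, which is 16.8 and 20.2 CPM.

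Cdk4, the kinase detected most often, was found largely in Sox11 cells. Its pooled level was 264 CPM in Sox11 cells of dataset A, 610 CPM in those of dataset B, 0 in Enpp2-rich cells of dataset A and 57.2 CPM in those of dataset B. The Sox11 pools lay above the Enpp2-rich pools, 10.6-fold in dataset B and at least 3250-fold in dataset A, where a floor of 3 counts in the pool stands for the count of 0. Single cells weighed on these folds: 1 cell held 69.4% of the Cdk4 counts of the Enpp2-rich pool of dataset B, which stood at 18.6 CPM without it, and 1 cell held 53.1% of those of the Sox11 pool of dataset A, which stood at 136 CPM without it. The fitted log2 difference of 3.79 (SE 2.97) did not pass the test (adjusted p = 0.766, edgeR quasi-likelihood), with the Enpp2-rich pools themselves far apart. It was 2.83 without the Enpp2-rich pool of dataset A and 16.84 without that of dataset B, which leaves only a pool at 0, so that value depends on the prior count and is no bound.

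Cdk4 was detected in 6 of 16 Sox11 cells of dataset A (37.5%, 15.2% to 64.6%) and in 15 of 25 of dataset B (60.0%, 38.7% to 78.9%). The 3 Enpp2-rich cells with it were all of dataset B, 3 of 16 (18.8%, 4.05% to 45.6%), and in dataset A it was detected in 0 of 14 (interval up to 23.2%; 3 cells of 14, the limit taken for a count of 0, would be 21.4%). In the remaining cells it was at 0 counts in all 9 (interval up to 33.6%; limit 33.3%). Of the 20 Sox11 cells under 10 counts of Cdk4, 18 were at exactly 0, and the 21 detected cells had a median of 1823 counts. Other members showed this too. Among Sox11 cells under 10 counts, Cdkn1b was at 0 in 7 and above 0 in 2, and Cdkn1a at 0 in 35 and above 0 in 1.

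The plates of dataset B gave few cells each. There the Sox11 cells with Cdk4 were 9 of 12 on P1, 4 of 6 on P2, 0 of 3 on P3 and 2 of 4 on PL4. No cell of P3, Sox11 or Enpp2-rich, had 10 counts. Sox11 cells with Cdk4 also had more genes, a median of 1948 against 1549.5 in dataset B (1508 against 1247 after thinning) and 1880 against 1699.5 in dataset A. Over all 82 cells the Spearman correlation of the Cdk4 level with genes per cell was 0.462, the highest of the 6 members, the others lying between 0.051 and 0.324. With every cell thinned to 500000 counts the share with Cdk4 was 31.2% and 56.0% in Sox11 cells of datasets A and B and 0% and 18.8% in Enpp2-rich cells, so the order of the classes held at equal counts. The part of the number of genes per cell in the Cdk4 share was not tested.

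Cdk4 and Cdkn1b are the widely detected kinase and inhibitor, and the 250 bases before their annotated starts are shown for that reason. The windows are from RefSeq on GRCm38.p6, Cdk4 at chr10:127063285-127063534 and Cdkn1b at chr6:134920151-134920400, both on the + strand. Of the 6 members, 5 had a window in the table. Capitals mark CACGTG, the E-box bound by Myc-family proteins, and CCAAT, the box bound by NF-Y, each searched on both strands; these letters cannot overlap with each other. The GC box GGGCGG was searched likewise, is not in capitals and can share bases with either.
Cdk4: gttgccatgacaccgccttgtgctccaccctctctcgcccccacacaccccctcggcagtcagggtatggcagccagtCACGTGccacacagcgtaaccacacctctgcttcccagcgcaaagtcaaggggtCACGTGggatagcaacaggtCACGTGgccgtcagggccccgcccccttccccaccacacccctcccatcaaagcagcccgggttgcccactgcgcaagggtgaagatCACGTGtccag
Cdkn1b: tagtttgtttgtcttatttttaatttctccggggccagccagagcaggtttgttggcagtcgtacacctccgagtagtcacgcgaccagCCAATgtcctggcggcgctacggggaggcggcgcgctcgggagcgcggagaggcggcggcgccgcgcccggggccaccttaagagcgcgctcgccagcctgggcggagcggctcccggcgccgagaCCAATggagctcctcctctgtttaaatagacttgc
The Cdk4 window held 4 E-boxes and no CCAAT box, and the Cdkn1b window held 2 CCAAT boxes and no E-box, and each held 1 GC box. Of the other members, the Cdk6 window held 1 E-box and neither other motif, the Btg2 window held 2 CCAAT boxes and 3 GC boxes, and the 2 windows of Cdkn1a held no E-box or CCAAT box and 0 and 2 GC boxes. Among 32851 windows of this length, 6.02% held an E-box, 33.8% a CCAAT box and 32.7% a GC box, and 0.0609% held 3 or more E-boxes, a count set down after the Cdk4 window was seen. The letters are a description of the windows, and nothing was measured on binding there.

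Cdk6, the other kinase of D-type cyclins, was rarely detected. It was found in 3 cells, all Sox11 cells: 2 of 16 in dataset A (12.5%, 1.55% to 38.3%) and 1 of the 25 of dataset B (4.00%, 0.101% to 20.4%). A single dataset B cell on P2 held 3700 counts, 91.1% of all Cdk6 counts, and the others held 214 and 137. The cell with 214 counts was the Sox11 cell led by astroglia markers, and without the 3 such cells Cdk6 was detected in 7.69% of Sox11 cells of dataset A and the log2 difference between Sox11 and Enpp2-rich pools was 9.45.

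The pooled Cdk6 level was 12 and 72.2 CPM in Sox11 cells, 0 and 0.087 CPM in Enpp2-rich cells and 0 in remaining cells. Without the single P2 cell the dataset B level was 0.101 CPM, close to that of the Enpp2-rich pool, which had 3 counts in all. Without its highest cell, the one led by astroglia markers, the Sox11 pool of dataset A stood at 4.78 CPM. The log2 difference of 9.59 (SE 4.60) did not pass the test (adjusted p = 0.421, edgeR quasi-likelihood) and passed with DESeq2 (log2 9.86, adjusted p = 0.00734). DESeq2 called 3186 of the 10305 genes it tested, and Cdk6 was the only member among them. The intervals of 0 of 14 and 0 of 16 Enpp2-rich cells reach 23.2% and 20.6% (limits for a count of 0, 21.4% and 18.8%) and overlap with those of the Sox11 cells.

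**Figure D2:**
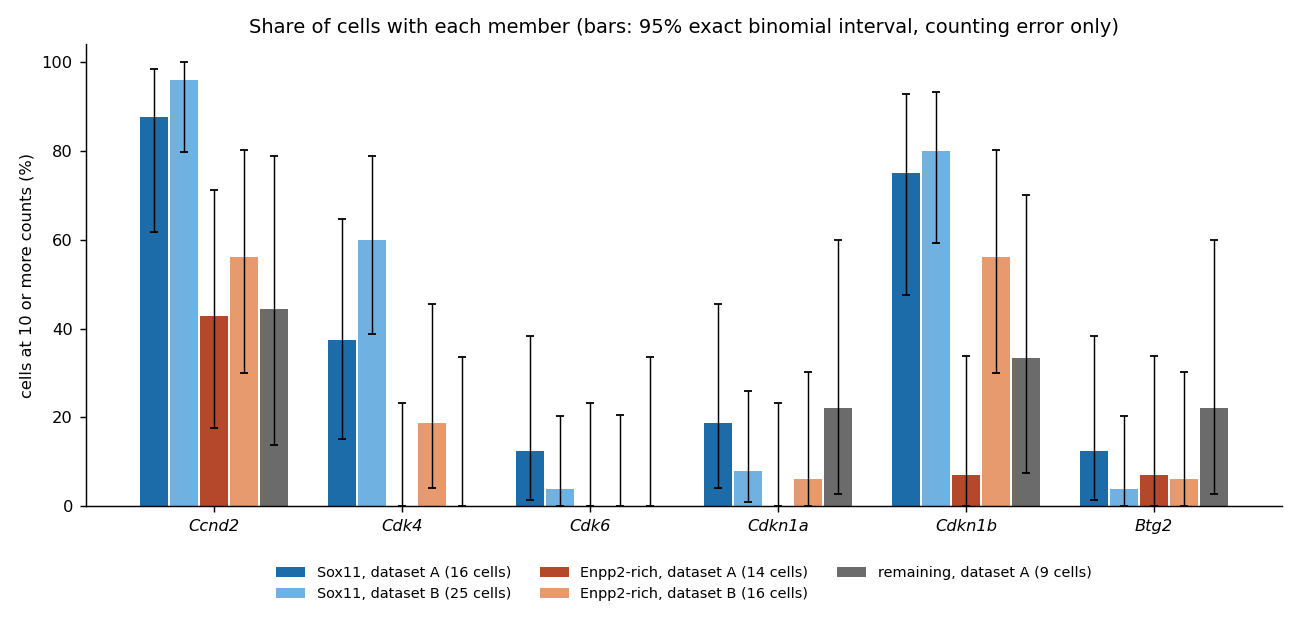
Percent of cells at 10 or more counts of each member, by class and dataset, with exact 95% binomial intervals that cover counting error only. Ccnd2 and Cdkn1b stand at 75.0% or more in Sox11 cells of both datasets, while the shares of Cdk6, Cdkn1a and Btg2 are at 22.2% or less in every class and their intervals overlap throughout.

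Cdkn1b, which encodes p27, was the inhibitor detected most often. Its pooled level was 167 and 217 CPM in Sox11 cells of datasets A and B, and 2.95 and 115 CPM in Enpp2-rich cells. The Sox11 level was 56.5-fold higher in dataset A, where 1 cell held all Cdkn1b counts of the Enpp2-rich pool, and 1.88-fold higher in dataset B. The fitted log2 difference of 1.55 (SE 1.84) did not pass the test (adjusted p = 0.919, edgeR quasi-likelihood). It was 0.65 without the Enpp2-rich pool of dataset A and 5.18 without that of dataset B. The Enpp2-rich pools differed from each other by more than the Sox11 pools did.

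By cells, Cdkn1b was detected in 12 of 16 Sox11 cells of dataset A (75.0%, 47.6% to 92.7%) and 20 of 25 of dataset B (80.0%, 59.3% to 93.2%). In Enpp2-rich cells it was detected in 1 of 14 in dataset A (7.14%, 0.181% to 33.9%) and 9 of the 16 of dataset B (56.2%, 29.9% to 80.2%). The Sox11 shares of both datasets were close, while the Enpp2-rich shares differed; each dataset is 1 sort, so the difference was not tested. Of the 9 Enpp2-rich cells of dataset B with Cdkn1b, 7 were among the 10 on PL4, 2 were the 2 on P1, and P3 gave 0 of 4.

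Ttr, the transthyretin gene that choroid plexus cells express most, took a median of 4.90% of counts in the Enpp2-rich cells of dataset B with Cdkn1b and 8.18% in those without, with ranges of 1.38% to 12.2% and 2.40% to 16.7%. In dataset A the 13 cells without Cdkn1b had a median Ttr share of 19.5%, and the single cell with it had 18.3%. The ranges overlapped, and the part of the Ttr share in the difference between datasets was not tested. Genes per cell and Cdkn1b lay differently in the datasets. In dataset B the medians were 1422 with it and 1637 without it in Enpp2-rich cells, and 1795.5 and 1901 in Sox11 cells. In dataset A they were 1771 with it and 1512 without it in Sox11 cells, and 1227 in the Enpp2-rich cells without it against 1779 in the single cell with it. In the remaining cells Cdkn1b was detected in 3 of 9 at a pooled 18.8 CPM. There 1 cell held 61.8% of its counts, and the pool stood at 7.72 CPM without that cell.

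Cdkn1a, which encodes p21, a target of p53, was detected in 8 cells spread over the classes. Its pooled level was 47.7 and 47.9 CPM in Sox11 cells, 0.0271 CPM (1 count) and 4.09 CPM in Enpp2-rich cells, and 148 CPM in remaining cells. In Sox11 cells of dataset B, 1 cell held 73.9% of the counts and the pool stood at 13.1 CPM without it, and without its highest cell the pool of dataset A stood at 30.0 CPM. The log2 difference between Sox11 and Enpp2-rich pools was 4.43 (SE 3.59; adjusted p = 0.785, edgeR quasi-likelihood). It was 3.46 without the Enpp2-rich pool of dataset A and 9.84 without that of dataset B. Detection was in 3 of 16 and 2 of 25 Sox11 cells, 0 of 14 and 1 of 16 Enpp2-rich cells and 2 of 9 remaining cells, and the intervals of all 5 shares overlapped.

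The remaining cells with Cdkn1a held 1218 and 1176 counts (442 and 1150 CPM). Both were rich in astroglial genes: 85952 and 9897 counts of Gja1, the gap junction gene of astrocytes, and 22589 and 7922 of Slc1a3, a glutamate transporter gene. The highest Cdkn1a count, 1815, was in a Sox11 cell of P2 that also had Ccnd2, Cdk4 and Cdkn1b at 9376, 2093 and 835 counts. Of the 3 Sox11 cells of dataset A with Cdkn1a, 1 was the cell with 5.26% microglia markers, which had 278 counts of Cdkn1a and 4 of 17 immediate early genes at 10 or more counts, Dusp1 at 5570 and Fos at 299 among them. Without the 3 Sox11 cells led by another list the log2 difference was 4.33.

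Btg2, a p53 target gene that restrains progenitor division and marks precursors about to make neurons, was detected in 7 cells. Its pooled level was 45.8 and 46.4 CPM in Sox11 cells, 44.3 and 8.82 CPM in Enpp2-rich cells and 682 CPM in remaining cells. Detection was in 2 of 16 and 1 of 25 Sox11 cells, 1 of 14 and 1 of 16 Enpp2-rich cells and 2 of 9 remaining cells.

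Each Btg2 pool rested on 1 or a few cells. A remaining cell with 9373 counts (4820 CPM) held 56.1% of all Btg2 counts, and the class stood at 116 CPM without it. That cell also held 130621 counts of Ighm and 36361 of Cd74, genes of B cells and of antigen presentation, and none of the 17 immediate early genes at 10 counts. The other remaining cell with Btg2 had 1658 counts of it and 5711 of Ighm, but 0 of Cd74. These were the 2 remaining cells led by no marker list, and none of the 6 astroglia-led cells had Btg2 at 10 counts, so the level of the class is not that of its astroglia-led cells. The log2 difference between Sox11 and Enpp2-rich pools was -0.09 (SE 2.36; adjusted p = 0.997, edgeR quasi-likelihood), and it was 0.86 when pools were scaled by library size alone, so no direction can be given for Btg2. Without the 3 Sox11 cells led by another list, 1 of which held 655 Btg2 counts, it was -0.47.

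Over the 6 members, none passed the adjusted edgeR test, and none of the 7189 genes did (0% called, with 1015 genes at an unadjusted p under 0.05). With DESeq2, which tested 10305 genes, 3186 passed the adjusted threshold. On simulated counts the edgeR fit recovered 85.4% of log2 changes of 2 at a dispersion of 0.1 and 0% of changes of 2, 4 or 6 at the dispersion of these pools, 3.474. By CPM, both Sox11 pools lay above both Enpp2-rich pools for 6 of 6 members, beside 35.5% of all genes tested (2552 of 7189). For Btg2 that order rested on 1 cell. Without it the Sox11 pool of dataset B stood at 0.0808 CPM, below both Enpp2-rich pools. The opposite order held for 0 members and for 13.9% of genes. After scaling by TMM factors, which ranged from 0.587 to 1.346, it was 5 of 6 members beside 31.1% of genes, Btg2 being the exception. Cdk6, at 0 and 0.087 CPM in the Enpp2-rich pools, passed the low-count filter through the Sox11 pools, which set its direction.

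The direction of the 5 members other than Btg2 was the same under each scaling. The median log2 difference over all genes tested was itself above 0, at 0.497 with TMM, 0.642 with RLE and 0.963 with library size alone. Relative to that median Ccnd2 stood at 1.94, 1.92 and 1.99, Cdk4 at 3.29, 3.35 and 3.02, and Cdkn1b at 1.06, 1.10 and 0.78. Btg2 was below the median in all 3, at -0.58, -0.67 and -0.10. The median over the members was 3.11.

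**Figure D3:**
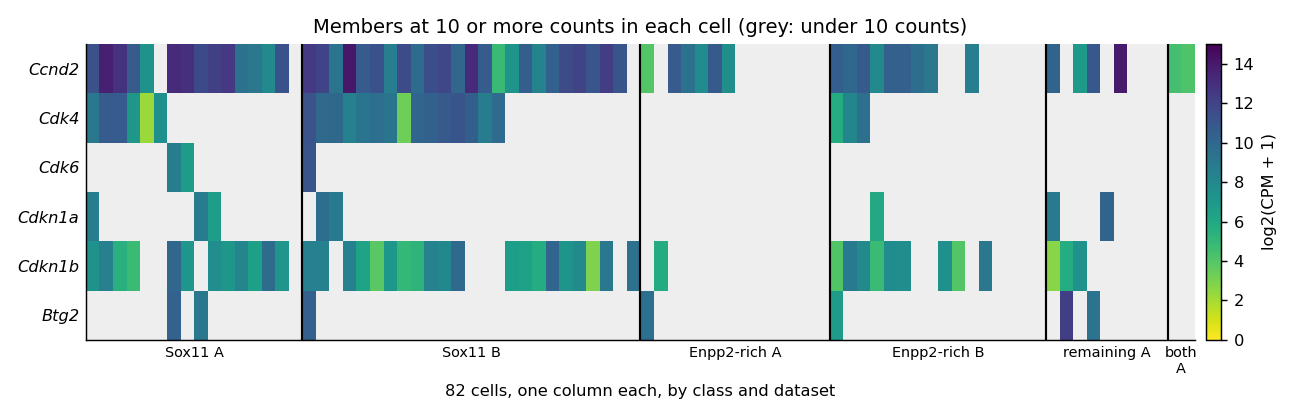
Each of the 82 cells is a column and each member a row, coloured by log2(CPM + 1) where the cell had 10 or more counts and grey where it had fewer, with cells ordered within class and dataset by Cdk4 and then by the number of members. The Ccnd2 and Cdkn1b rows are filled on both sides of the Cdk4 boundary in Sox11 cells, and 15 columns are grey throughout, 11 of them Enpp2-rich.

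The members were next read together in each cell. Kinases were set beside inhibitors: 26 cells had Cdk4 or Cdk6, and 21 of them had Cdkn1a or Cdkn1b as well (80.8%, 60.6% to 93.4%). Of the 56 cells without a kinase, 27 had an inhibitor (48.2%, 34.7% to 62.0%). The share was higher beside a kinase over all cells, and the intervals overlapped slightly.

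Within the Sox11 cells there was no such order. In dataset A 6 of 8 cells with a kinase had an inhibitor (75.0%, 34.9% to 96.8%) against 7 of 8 without (87.5%, 47.3% to 99.7%). In dataset B it was 12 of 15 (80.0%, 51.9% to 95.7%) against 9 of 10 (90.0%, 55.5% to 99.7%). In dataset A the order turned after thinning to 500000 counts, and likewise at a minimum of 10 CPM, to 85.7% with a kinase against 77.8% without. Without the 3 cells led by another list the order stayed, at 83.3% against 85.7%. The intervals overlap almost wholly, and no test was made over cells. Of the 26 kinase cells 23 were Sox11 cells, and the part of class in the share over all cells was not tested. Cells with a kinase also had more genes, a median of 1926.5 against 1351.

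Enpp2-rich cells had a kinase in 3 cells, all of dataset B, and all 3 had Cdkn1b. Of the 27 without a kinase, 7 had an inhibitor (25.9%, 11.1% to 46.3%): 6 of 13 in dataset B (46.2%, 19.2% to 74.9%) and 1 of 14 in dataset A (7.14%). Among remaining cells, none of which had a kinase, 4 of 9 had an inhibitor (44.4%, 13.7% to 78.8%). The 2 cells of both rules had neither.

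**Figure D4:**
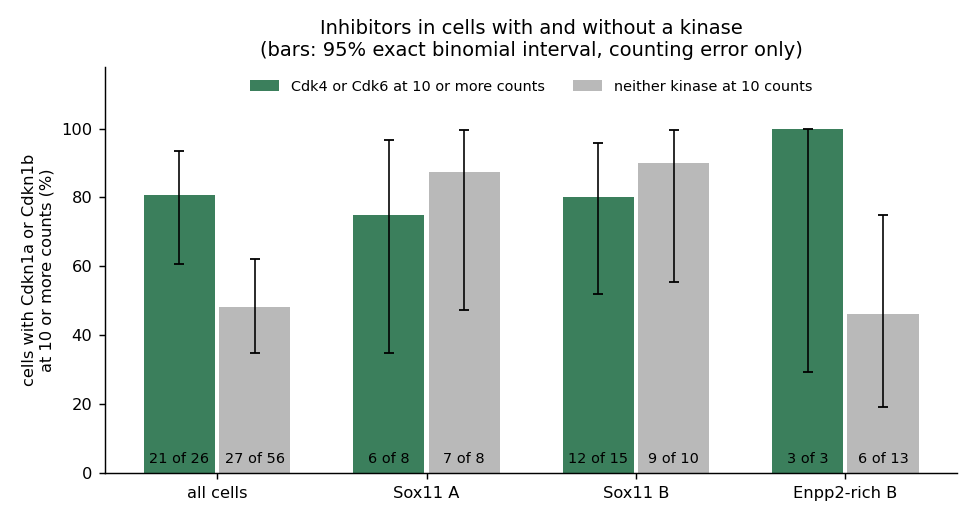
Percent of cells with Cdkn1a or Cdkn1b at 10 or more counts among cells with Cdk4 or Cdk6 (green) and with neither (grey), with exact 95% binomial intervals and the number of cells in each bar. The bars stand at 80.8% and 48.2% over all cells, and the intervals of each pair overlap; in Sox11 cells the green bar is the lower one, an order that turns in dataset A after thinning to 500000 counts or at a minimum of 10 CPM.

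The pair behind most of this was Cdk4 with Cdkn1b. They were together in 18 of the 24 Cdk4 cells (75.0%), against Cdkn1b in 27 of 58 cells without Cdk4 (46.6%). In Sox11 cells alone it was 15 of 21 (71.4%) against 17 of 20 (85.0%). Cdkn1a was in 3 of 24 Cdk4 cells and 5 of 58 others. All 3 Cdk6 cells had Cdkn1b and none had Cdkn1a. They were Sox11 cells, of which 32 of 41 had Cdkn1b and 5 of 41 had Cdkn1a.

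Ccnd2 was present in 23 of the 24 Cdk4 cells and in all 3 Cdk6 cells. Of the cells without Cdk4, 36 had Ccnd2 and 22 did not. In Sox11 cells alone, Ccnd2 was in 20 of 21 cells with Cdk4 and in 18 of 20 without it. The full set of cyclin, kinase and p27, Ccnd2 with Cdk4 and Cdkn1b, was found in 18 cells, of which 15 were Sox11 cells and 3 were Enpp2-rich. Another 21 cells had Ccnd2 and Cdkn1b without Cdk4, 16 of them Sox11 cells. Ccnd2 with Cdk4 and no Cdkn1b was found in 5 cells, all Sox11 cells. Cyclin D2 and p27 messages were thus detected together in 31 of 41 Sox11 cells, with Cdk4 present in 15 of the 31. Taken singly, Ccnd2 was in 38 of the 41 cells and Cdkn1b in 32. Whether the 2 were together more often than these single shares give was not tested.

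No cell had all 6 members. A Sox11 cell of P2 had 5, lacking Cdkn1a: 10244 counts of Ccnd2, 4027 of Cdk4, 3700 of Cdk6, 623 of Cdkn1b and 2375 of Btg2. It was the cell that carried the dataset B pools of both Cdk6 and Btg2, and it had 3267 genes with a count. At the other end 15 cells had none of the 6, 1 Sox11 cell, 11 Enpp2-rich cells and 3 remaining cells.

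Over the 82 cells the Spearman correlation of log2(CPM + 1) was 0.437 between Ccnd2 and Cdk4, 0.413 between Ccnd2 and Cdkn1b and 0.265 between Cdk4 and Cdkn1b. Cells share depth and class in these values, and they are given as a description. Among 3243 other genes detected in 10 or more cells, the most alike to Ccnd2 were Tuba1a (0.593), Dlx6os1 (0.571) and Tubb3 (0.564), and to Cdk4 were Dlx6os1 (0.573), Atat1 (0.572) and Tmem131l (0.568). Tuba1a, Atat1 and Tubb3 encode tubulins and a tubulin acetyltransferase, Dlx6os1 is a long noncoding RNA gene beside the Dlx genes of GABAergic neurons, and Tubb3 is in the neuroblast list.

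Cdkn1b was most like Arglu1 (0.535), Clasp2 (0.533) and Gsk3b (0.533), which were each detected in 60 or 65 cells, so its pattern was closest to that of widely detected genes. The rare members gave likenesses that rest on few cells: Cdk6 with Lsm5 (0.663), Chmp1a (0.487) and Elp2 (0.417), Cdkn1a with Plpp3 (0.482), Snap91 (0.433) and Srek1 (0.407), and Btg2 with Lsm5 (0.466), Pcif1 (0.423) and Khdc4 (0.382).

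The other genes of the pathway were read from lists of cyclins, kinases, inhibitors and their targets. None of their tested genes passed the adjusted edgeR test, as for the 7189 genes as a whole. Of 5 D-type and E-type cyclins, 4 were analysed and Ccnd2 was the only one detected in 20 or more cells. Among those chosen after their values were seen, Ccnd1 was detected in 0 cells, and Ccnd3 in 11, with 154 CPM in the Enpp2-rich pool of dataset B, 40.7 CPM in that of dataset A and 26.2 and 11.0 CPM in the Sox11 pools (log2 -2.68, SE 2.01; adjusted p = 0.739, edgeR). In Sox11 cells Ccnd3 was detected in 1 of 16 and 1 of 25, where Ccnd2 was detected in 14 and 24.

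The kinase list adds to Cdk4 and Cdk6 the subunits of the Cdk-activating kinase, the phosphatase gene Cdc25a, and Cdk2, which was too low to be tested. All 6 tested genes were fitted higher in Sox11 pools, beside a median log2 difference of 0.497 over all genes tested, and 5 of the 6 had both Sox11 pools above both Enpp2-rich pools, beside 35.5% of all genes. Their median log2 difference was 3.29. Among them, Cdk6 (0 and 0.087 CPM in the Enpp2-rich pools) and Mnat1 (0 and 0.029 CPM) passed the low-count filter through the Sox11 pools. The direction of these genes was set by that filter and says nothing about the list. The list of immediate early and dissociation genes stood the same way: all 7 tested genes were fitted higher in Sox11 pools, with a median of 3.80. The median over all genes tested was 0.497, so most genes tested were fitted higher there as well. Of the 7 genes, 4 had both Sox11 pools above both Enpp2-rich pools, beside 35.5% of all genes, and none passed the test. These genes were detected in few cells, 7 of the 17 analysed in none and Dusp1, the most frequent, in 10, and their part in the levels of the kinases was not tested. Jun (0 CPM in both Enpp2-rich pools) and Klf6 (0.108 and 0.29 CPM) likewise passed the low-count filter through the Sox11 pools. Their direction was set by it, and the number of genes fitted higher says nothing about the list. The CDK inhibitor list had 5 of 7 genes analysed, and 3 tested, of which 2 were fitted higher and 1 lower. Cdkn1b was the only gene of that list detected in 20 or more cells.

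Btg1, the closest relative of Btg2, had a pattern unlike it. Its pooled level was 638 and 664 CPM in Sox11 cells, against 0 and 0.348 CPM in Enpp2-rich cells and 51.8 CPM in remaining cells. It was detected in 14 of 16 and 24 of 25 Sox11 cells and in 0 of 30 Enpp2-rich cells. Its log2 difference of 11.69 (SE 2.50) did not pass the adjusted test (adjusted p = 0.224, edgeR quasi-likelihood). Btg1 passed the low-count filter through the Sox11 pools, which set its direction. Both Sox11 pools lay above both Enpp2-rich pools for 35.5% of all genes tested.

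Of the p27 turnover list, Skp1, a core subunit of the ubiquitin ligase that marks p27 for degradation, was detected in 51 cells at 141 and 403 CPM in Sox11 pools and 208 and 677 CPM in Enpp2-rich pools (log2 -1.12, SE 1.01; adjusted p = 0.83, edgeR). These ranges overlap. Of 9 p53 response genes analysed, Mdm2, which encodes the ligase that degrades p53, was detected in 21 cells, at 319 and 423 CPM in Sox11 pools and 169 and 187 CPM in Enpp2-rich pools (log2 0.45, SE 0.96; adjusted p = 0.99, edgeR). The pocket protein and E2F list had 9 of 13 genes analysed, none detected in more than 14 cells.

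Of 26 genes of the S, G2 and M phases, 9 were analysed here, all of them genes of DNA replication, nucleotide synthesis or DNA repair: Pcna, Mcm2 to Mcm7, Tyms and Ung. The G2 and M genes of the list were not analysed here, so the counts speak of S phase genes only. At least 1 of the 9 was detected in 21 of the 82 cells, and 3 or more in 2 cells, both Sox11 cells of dataset B, the higher with 7. In Sox11 cells at least 1 was detected in 9 of 21 cells with Cdk4 (42.9%) and in 5 of 20 without (25.0%), beside the higher number of genes in cells with Cdk4. These shares pool the datasets, which differed in both values. In Sox11 cells of datasets A and B, Cdk4 was in 37.5% and 60.0%, and at least 1 of the 9 genes in 3 of 16 and 11 of 25. The part of dataset was not tested. The gene of the 9 detected most often was Mcm7, a subunit of the replicative helicase that is named here after its values were seen. It was found in 10 of 25 Sox11 cells of dataset B, 0 of 16 of dataset A and 1 Enpp2-rich cell.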

How the data were processed

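Single sorted cells were sequenced after template switching and PCR preamplification, per the labels' protocols. The deposited values were unnormalized whole-number counts of reads, a row per gene and a column per cell. Per the submitters' processing notes the tools were FastQC 0.12.1, STAR 2.7.10b, featureCounts and Subread 2.1.1, and the builds GRCm39 and mm10, with no roles stated. The table held 15305 gene rows, 1997 of them without a count, and 82 cells, with no unused column and no identical pair of cells. Dataset A held 86683085 counts and dataset B 85771229. Gene names are those of the table, and promoter windows were matched by symbol to RefSeq windows of GRCm38.p6.

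Counts were divided by the total of a cell or pool to give CPM, and log2(CPM + 1) was used for correlations. Raw counts were summed over the Sox11 or Enpp2-rich cells of a dataset into 4 pools, 2 per class, and compared with edgeR 4.0.16 (R 4.3.3; filterByExpr, TMM, quasi-likelihood test, Benjamini-Hochberg, threshold 0.05) without a block. Both pools of a dataset come from the same sort, per the labels, so the dataset pairs the pools, and the fit with it as a block was an alternative. Because no remaining cell came from dataset B, the planned fit of 6 pools was replaced by one of 5 after the data were seen. The mouse behind each cell is not given, and p-values measure only the spread between pools. DESeq2 1.42.0 was an alternative tool, and Python 3.11.15, scipy 1.17.1 and matplotlib 3.10.9 gave shares, intervals and figures. The fit was tested on simulated data with the 7189 genes. No cell was filtered and no doublet caller was run.

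The members and lists were chosen with earlier results of these data known. Other genes were named where a pathway list gene was detected in at least 20 cells (at most 3 per list), where they were the 3 most alike to a member among genes detected in at least 10 cells, or as class markers, and otherwise as chosen after their values were seen. Alternatives were other scalings, tools, filters, class rules, detection minimums, thinning and left-out pools or cells.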

Additional observations from a re-analysis of the deposited data

How the results depend on the processing

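Among 106 log2 differences of members refitted under alternatives, 99 kept their direction and side of the threshold, as did 13 of 18 counts of called genes, 320 of 330 shares of cells and 61 of 66 co-detection shares (shares by staying within the main interval). The 0 genes called by edgeR became 3186 with DESeq2 (2373 higher in Sox11 pools), 371 without a filter on low counts, 61 in the 5-pool fit with the remaining cells, which was added after the data were seen, and 0 to 198 with 1 pool left out (198 without Sox11 cells of dataset A, 111 without those of dataset B). The dataset as a replicate block changed no call. Cdk6 passed only with DESeq2 (9.86), which called 3186 of the 10305 genes it tested. Btg2 turned from -0.09 to 0.86 with library size alone, 0.67 with the replicate block, 0.62 after thinning, 0.04 with Sox11 at 100 or more counts and 0.06 without the deepest cell of each pool, and it ranged from -0.78 to 2.30 with 1 pool left out, 2.30 being without Enpp2-rich cells of dataset A. The causes were not tested. The other log2 differences ranged from 2.23 to 2.96 for Ccnd2, 2.83 to 16.84 for Cdk4, 7.91 to 13.45 for Cdk6, 3.46 to 10.69 for Cdkn1a and 0.65 to 5.18 for Cdkn1b. Leaving out an Enpp2-rich pool gave both ends for Cdk4 and Cdkn1b, the lower end for Cdkn1a and the upper end for Cdk6. The upper ends for Cdk4 and Cdk6 were fitted against a pool at 0 counts. They depend on the prior count and are no bounds. The upper end for Cdkn1a came with Enpp2 at 2% or more, which left out the only Enpp2-rich cell of dataset B with Cdkn1a.

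At 1 or more counts, Ccnd2 was in 71.4% of Enpp2-rich cells of dataset A, and an inhibitor in 100% of Sox11 cells without a kinase in both datasets; with Sox11 at 100 or more counts that share was 100% in dataset A. The order of that share with and without a kinase turned in Sox11 cells of dataset A after thinning and at 10 CPM (85.7% against 77.8%). Enpp2-rich cells of dataset B had Btg2 in 0% with Sox11 at 1 or more counts and Cdkn1a in 0% with Enpp2 at 2% or more. With dataset B limited to plate PL4, chosen after the data were seen, its Sox11 cells had Ccnd2 in 75.0%, Cdk6, Cdkn1a and Btg2 in 0%, Cdkn1b in 100% and an inhibitor in 100% with and without a kinase, and its Enpp2-rich cells had Cdkn1a and Btg2 in 0%; Cdk6 and Cdkn1a then had no fitted value. Leaving out the 3 Sox11 cells led by another marker list, also chosen afterwards, moved no member's call. With 2 pools per class and few cells, rare members have wide intervals, and the spread between pools limits every test.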
